A study of Rattus norvegicus with 8 samples.

Results

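Interferon-stimulated genes were followed in the basolateral amygdala of the rat (its lateral and basal nuclei) 8 days after status epilepticus, across 4 groups that differed in stimulation and in fear training. The set held 37 genes, named as genes that interferons induce, and each was read by the probe set that is annotated to its symbol alone and had the highest mean log2 signal over the arrays. A probe set is the group of short probes on the array that reads 1 transcript. Of the 37 genes, 34 had such a probe set, out of 14217 named genes on the array, and 29 of the 34 passed the filter on dim probe sets and were tested. Gbp5, Ifi47 and Xaf1 had no probe set of their own.

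Control rats were operated and were not stimulated. Epileptogenic rats were stimulated in the amygdala and answered with status epilepticus that the labels call good, with 40 or more HAFDs counted in its first 3 h, and they showed no spontaneous seizures during the study. All rats were habituated to the apparatus in 5 sessions, and on day 8 all received 2 trials with a tone of 75 dB for 20 s and a footshock of 1.5 mA for 1 s. In paired training the tone ended with the shock, while in unpaired training the shock came before the tone. The tissue was taken 3 h after training on the ipsilateral side, the nuclei were cut out by laser, and 30 ng of RNA per rat was amplified in 2 rounds. Each of the 8 arrays was a pool of 2 rats out of the 4 in its group, so 16 rats were used. The 2 arrays of a group carry the letters A and B, are called biological replicates in the labels, and set how far p-values can reach, since only the spread between pools is measured. Strain, sex and age are not given in the sources used here.

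Interferons are cytokines that signal cells to raise their antiviral defences. Type I and type II interferons bind separate receptors on the cell surface, whose Janus kinases phosphorylate transcription factors of the STAT family. A complex that holds STAT2 and IRF9 binds the interferon-stimulated response element, and a separate element, the gamma-activated site, serves type II interferon. The genes switched on in this way sense foreign RNA and DNA, block viral entry and replication, tag proteins with the ubiquitin-like ISG15 and feed back on the pathway. In the brain, microglia, astrocytes, neurons and endothelial cells can all respond to interferons, and microglia express many of these genes strongly once activated.

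The promoters of the genes that follow are shown because the response element is where the complex of STAT2 and IRF9 binds. The windows come from RefSeq (build GRCr8), run from 250 bases before to 50 bases after the annotated start of a gene and are written in the direction of transcription. A window was found for 30 of the 37 genes. The windows of Mx2, Isg15, Ifit1, Ifit2, Usp18, Dhx58 and Zbp1 were missing. Capitals mark the element, searched as GAAA, any 2 bases and GAAA on either strand, so that TTTC, 2 bases and TTTC is the same element on the opposite strand. The 3 windows shown whole hold the element and belong to genes whose signal was at least 4 times higher in epileptogenic rats. They are those of Ddx60 at chr16:33208790-33209089 on the minus strand, Rsad2 at chr6:48788071-48788370 on the minus strand and Gbp2 at chr2:234005477-234005776 on the plus strand.

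Ddx60: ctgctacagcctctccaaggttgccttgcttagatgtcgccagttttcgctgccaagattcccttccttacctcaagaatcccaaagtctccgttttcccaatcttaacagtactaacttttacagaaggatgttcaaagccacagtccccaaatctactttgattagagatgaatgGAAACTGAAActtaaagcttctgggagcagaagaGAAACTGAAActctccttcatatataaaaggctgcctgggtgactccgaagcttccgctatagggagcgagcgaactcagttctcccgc
Rsad2: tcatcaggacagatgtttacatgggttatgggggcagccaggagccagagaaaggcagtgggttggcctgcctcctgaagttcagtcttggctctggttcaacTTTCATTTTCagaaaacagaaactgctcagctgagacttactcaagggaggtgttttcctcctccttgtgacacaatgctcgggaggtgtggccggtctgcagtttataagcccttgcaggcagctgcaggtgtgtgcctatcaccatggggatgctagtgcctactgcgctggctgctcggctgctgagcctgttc
Gbp2: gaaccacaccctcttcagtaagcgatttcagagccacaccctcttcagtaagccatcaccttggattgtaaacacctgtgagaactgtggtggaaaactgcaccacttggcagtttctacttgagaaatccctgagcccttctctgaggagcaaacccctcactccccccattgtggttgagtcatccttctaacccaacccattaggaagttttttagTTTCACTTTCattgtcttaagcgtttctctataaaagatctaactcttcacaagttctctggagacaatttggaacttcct

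Ddx60 held the element at 2 places, starting 73 and 39 bases before the annotated start, and both read GAAACTGAAA on the strand of the gene. In Rsad2 the element started 147 bases before the start and lay on the opposite strand, as TTTCATTTTC. Gbp2 held it 31 bases before the start, also on the opposite strand, as TTTCACTTTC. Stretches of 50 bases around the element are given for 7 further genes to show how its middle bases and its strand varied among transcription factors, antiviral enzymes and membrane proteins of the set.

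Irf7 (chr1:205800063-205800112, minus strand): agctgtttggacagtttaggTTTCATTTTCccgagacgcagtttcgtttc
Eif2ak2 (chr6:21941118-21941167, plus strand): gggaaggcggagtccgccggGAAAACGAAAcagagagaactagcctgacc
Oas1a (chr12:41330405-41330454, plus strand): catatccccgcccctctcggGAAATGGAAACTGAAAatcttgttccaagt
Ifit3 (chr1:241527262-241527311, plus strand): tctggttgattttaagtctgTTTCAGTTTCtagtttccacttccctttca
Bst2 (chr16:18255069-18255118, minus strand): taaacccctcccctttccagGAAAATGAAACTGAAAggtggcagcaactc
Parp14 (chr11:78408038-78408087, plus strand): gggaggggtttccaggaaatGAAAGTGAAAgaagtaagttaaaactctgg
Ifi44 (chr2:243303837-243303886, minus strand): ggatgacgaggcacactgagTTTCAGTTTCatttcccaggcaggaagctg

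In Oas1a and Bst2 2 matches overlapped and ran together as 1 longer stretch. The element was present in 17 of the 30 genes with a window (56.7%), against 1312 of the 33469 windows of all RefSeq genes (3.92%). It was found in 10 of the 16 genes with a window that rose in epileptogenic rats and in 7 of the 14 other members with one. Irf8, Irf9, Stat2, Mx1, Parp9 and Slfn4 rose and had a window without a match. Of these, Irf8, Mx1 and Slfn4 were also at least 4 times higher in epileptogenic rats. Of the 21 matches in the 17 genes, 19 started within 150 bases before the annotated start, and 13 were read on the strand of the gene. The gamma-activated site, searched as TTCNNNGAA, which is its own reverse complement, was present in 11 of the 30 genes (36.7%) against 2970 of all windows (8.87%), in 5 of the 16 genes that rose and in 6 of the 14 others. Sp100 had 2 windows and counted once. A match is a match of letters, and binding was not measured.

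**Figure D1:**
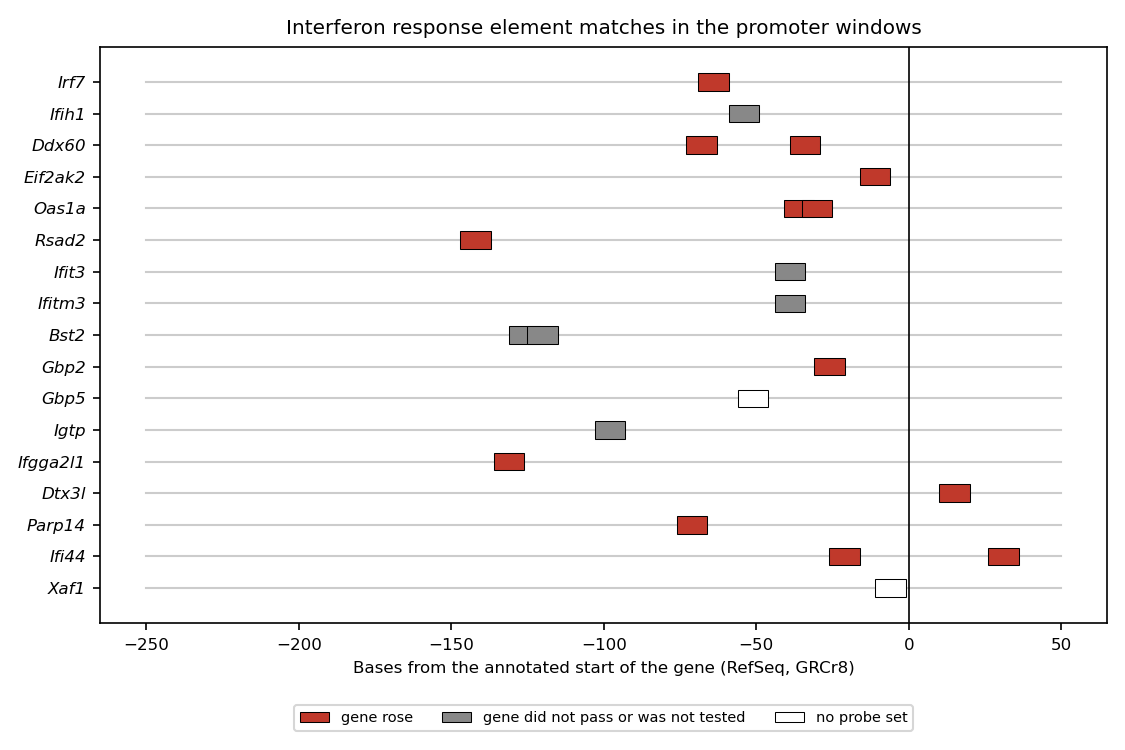
Position of each match to the response element in the promoter windows of 17 members, in bases from the annotated start (vertical line at 0), with the window drawn as a grey line from 250 bases before to 50 bases after it. Boxes span the 10 bases of a match and are red where the gene rose in epileptogenic rats, grey where it did not pass or was not tested and white where the array had no probe set. Most of the 21 matches lie close before the start, and 2 lie after it.

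Most of the interferon-stimulated genes were higher in epileptogenic rats. Of the 29 tested members, 20 rose and none fell in epileptogenic against control rats over both trainings (limma, adjusted p under 0.05), while 2.81% of all 18625 tested probe sets rose. The members were chosen with earlier results of these data known, so the shares given here describe the set and are not an independent test. At an unadjusted p under 0.05 the counts were 23 members higher and 0 lower, and 3429 of all tested probe sets (18.4%) passed in either direction. Among those that rose, Slfn4, Mx2, Rsad2 and Ifgga2l1 had log2 differences of 3.38 to 3.80. Ddx60, whose control signals were all under the level of the filter, had one of 4.21, which was 2.36 with 16 added to each signal before the logarithm. Over all 34 members with a probe set, tested or not, 33 had a higher mean in epileptogenic rats, the median log2 difference was 1.70 and the range was -0.42 to 4.21, while the median over all tested probe sets was -0.11. Every epileptogenic array lay above every control array for 21 of the 29 tested members, against 7.29% of the tested probe sets.

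The filter asked for a mean log2 signal above 4.35, a signal of 20.3. For 10 members the control mean was under that level, 5 of them were tested, and 3 of these rose, so that part of the list could enter the test only through the epileptogenic arrays. With no filter, 17 of the 34 members rose, against 1.51% of 31042 probe sets. Without the array epileptogenic unpaired B, 10 of the 29 members rose, as did 199 of all tested probe sets. Without each of the other 7 arrays 15 to 17 members rose, and 240 to 367 of all tested probe sets. In all tested probe sets 523 were higher and 154 lower, while centring each array on its median gave 377 higher and 12 lower, with 21 members among the former.

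**Figure D2:**
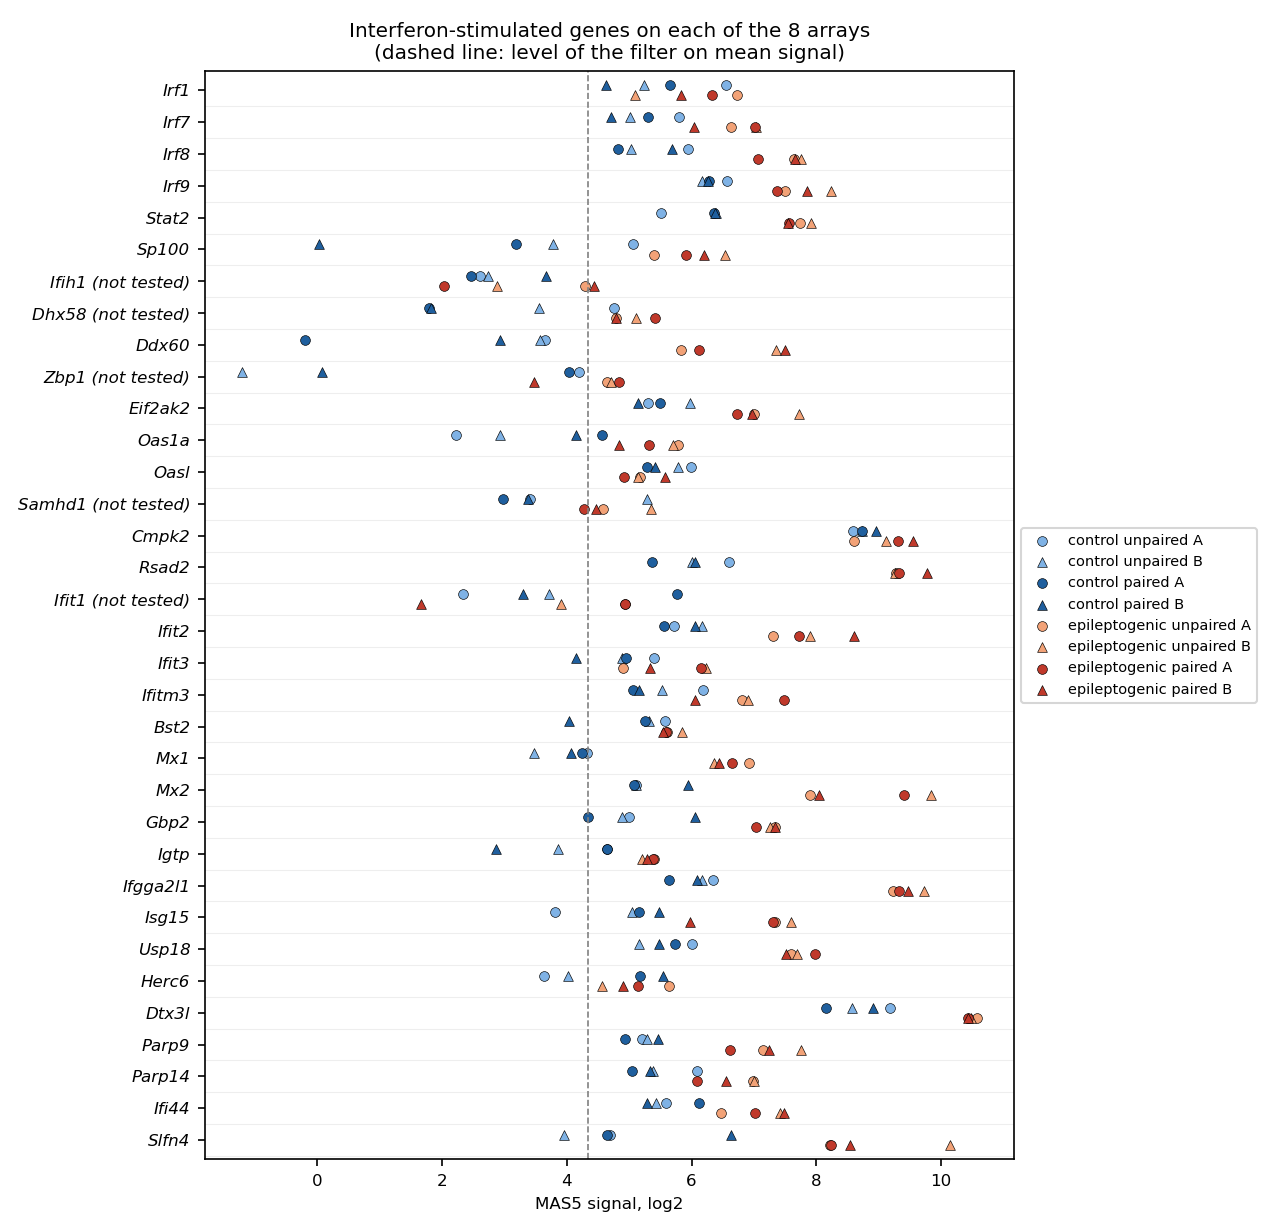
MAS5 signal on a log2 scale of the 34 members with a probe set on each of the 8 arrays, with control arrays in blue, epileptogenic arrays in orange and red, circles for array A and triangles for array B. The dashed line is the level of the filter, 4.35, and genes marked as not tested had a mean under it. For 22 of the 34 members, such as Rsad2, Ifgga2l1 and Dtx3l, all epileptogenic points lie to the right of all control points.

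Values of single genes are MAS5 signals on a linear scale, given in the order unpaired A, unpaired B, paired A and paired B. Differences are in log2 signal, epileptogenic minus control, with the SE of the limma fit, over 4 against 4 arrays. A MAS5 signal summarises the probes of 1 probe set, so signals are compared between arrays and not between genes. In tissue pieces such as these, more cells of a type and more RNA per cell cannot be told apart.

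Among the 6 transcription factors of the set, 4 rose and none fell. Stat2, the STAT that enters the interferon complex, had signals of 45.5, 84.2, 81.7 and 83.1 in control rats and 214, 241, 190 and 187 in epileptogenic rats. Irf9, the DNA-binding partner of that complex, had signals of 94.9, 71.5, 78.0 and 76.7 in control rats and 180, 303, 166 and 232 in epileptogenic rats. For both genes every epileptogenic array was above every control array, and the low control array of Stat2 was unpaired A. Stat2 was higher by 1.53 ± 0.24 (adjusted p = 0.0112) and Irf9 by 1.42 ± 0.25 (adjusted p = 0.0172). A second probe set of Irf9 was also higher, by 1.80 (adjusted p = 0.0112), whereas the second probe set of Stat2 differed by 0.43 (adjusted p = 0.448).

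Irf7, which drives the amplifying wave of type I interferon, had signals of 55.9, 32.3, 39.4 and 26.2 in control rats and 99.5, 131, 130 and 66.0 in epileptogenic rats. Irf8, a factor of myeloid cells and microglia, had signals of 61.4, 32.7, 28.3 and 51.2 in control rats and 199, 215, 133 and 201 in epileptogenic rats. Groups did not overlap for either gene. The difference was 1.48 ± 0.32 for Irf7 (adjusted p = 0.0407) and 2.15 ± 0.30 for Irf8 (adjusted p = 0.00665). Irf1, a factor that type II interferon induces, had signals of 94.0, 37.8, 50.2 and 24.8 in control rats and 106, 34.2, 80.7 and 57.0 in epileptogenic rats. Its groups overlapped, array A was above array B in each group, and the difference of 0.48 ± 0.45 did not pass (adjusted p = 0.629). Sp100, a nuclear body protein, had signals of 33.5, 13.7, 9.07 and 1.02 in control rats and 42.1, 93.2, 60.2 and 73.1 in epileptogenic rats. All epileptogenic arrays were above all control arrays, the control arrays spread widely, and the difference of 3.00 ± 0.70 did not pass (adjusted p = 0.0504). With the letters as a replicate block Sp100 passed (adjusted p = 0.0122), and adding 16 to each signal before the logarithm gave 1.53 (adjusted p = 0.0213). When single arrays were left out, Irf8 passed in all 8 fits, Stat2 in 7 (adjusted p = 0.0535 without epileptogenic unpaired B), Irf9 in 3 (highest adjusted p = 0.0726 without the same array) and Irf7 only without epileptogenic paired B (highest adjusted p = 0.146, without epileptogenic unpaired B). Sp100 passed without control paired A (adjusted p = 0.0191).

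Of the 5 sensors of foreign nucleic acids, 2 were tested and both rose. Ddx60, an interferon-induced helicase related to the RIG-I-like receptors of viral RNA, had signals of 12.6, 11.9, 0.875 and 7.61 in control rats and 56.7, 163, 69.8 and 180 in epileptogenic rats. Eif2ak2, which encodes the kinase PKR that stops translation on double-stranded RNA, had signals of 39.5, 62.7, 44.8 and 35.3 in control rats and 128, 212, 106 and 125 in epileptogenic rats. In both genes the lowest epileptogenic array lay above the highest control array. The difference was 4.21 ± 0.71 for Ddx60 (adjusted p = 0.0157) and 1.63 ± 0.27 for Eif2ak2 (adjusted p = 0.0145). All control signals of Ddx60 were under the filter level, and with 16 added before the logarithm its difference was 2.36 (adjusted p = 0.00719). Neither gene passed without epileptogenic unpaired B (adjusted p = 0.0821 for Ddx60 and 0.0690 for Eif2ak2) or without epileptogenic paired B (0.0598 and 0.0512).

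The other 3 sensors were too dim to test. Dhx58, the regulatory RIG-I-like receptor LGP2, had signals of 27.1, 11.7, 3.46 and 3.54 in control rats and 27.8, 34.3, 42.8 and 27.5 in epileptogenic rats, with no overlap by a narrow gap. Zbp1, a sensor of left-handed nucleic acids, had signals of 18.2, 0.431, 16.3 and 1.05 in control rats and 25.0, 26.2, 28.6 and 11.1 in epileptogenic rats, and its groups overlapped. Ifih1, the double-stranded RNA receptor MDA5, stayed between 4.07 and 21.7 on all arrays. Their differences in mean log2 signal were 2.04, 2.65 and 0.54, with no test.

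Among the 5 genes of oligoadenylate synthesis and nucleotide metabolism, 4 were tested and 2 rose. Rsad2, which encodes viperin, an enzyme that makes a chain-terminating nucleotide, had signals of 97.1, 64.2, 41.1 and 66.7 in control rats and 618, 612, 641 and 874 in epileptogenic rats. Its highest control signal was far under its lowest epileptogenic signal, and the difference was 3.40 ± 0.24, a ratio of 10.5 (adjusted p = 0.00095). Cmpk2, a mitochondrial nucleotide kinase whose gene is the direct neighbour of Rsad2 in RefSeq order, had signals of 386, 425, 423 and 496 in control rats and 388, 555, 632 and 749 in epileptogenic rats. The groups of Cmpk2 overlapped through epileptogenic unpaired A, and its difference of 0.39 ± 0.19 did not pass (adjusted p = 0.321). A second probe set of Cmpk2 differed by 0.29 (adjusted p = 0.762).

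Oas1a, which makes the oligoadenylates that activate RNase L, had signals of 4.66, 7.62, 23.7 and 17.7 in control rats and 55.1, 51.8, 39.7 and 28.7 in epileptogenic rats. Its groups did not overlap, and the difference was 1.94 ± 0.42 (adjusted p = 0.0377), or 1.05 with 16 added before the logarithm (adjusted p = 0.0341). Its mean log2 signal in control rats, 3.46, was under the filter level, and with no filter Oas1a did not pass (adjusted p = 0.0623). Oas1a passed only without control unpaired B when single arrays were left out (highest adjusted p = 0.146, without epileptogenic paired A). Oasl, a relative of the synthetases, was the only member with a lower mean in epileptogenic rats. Its signals were 63.9, 55.1, 38.8 and 42.5 in control rats and 36.0, 35.5, 30.1 and 47.5 in epileptogenic rats, with overlapping groups and a difference of -0.42 ± 0.28 (adjusted p = 0.475). Samhd1, which degrades nucleotides, was not tested, with signals of 7.89 to 38.9 in control rats and 19.4 to 40.9 in epileptogenic rats.

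Of the 5 genes of the IFIT, IFITM and tetherin group, 4 were tested and 1 rose. Ifit2, an RNA-binding protein that blocks translation of viral RNA, had signals of 52.8, 71.9, 47.3 and 66.6 in control rats and 157, 239, 212 and 387 in epileptogenic rats. The groups lay apart, and the difference was 2.00 ± 0.28 (adjusted p = 0.00650). A second probe set of Ifit2 differed by 1.16 (adjusted p = 0.192). Ifit3, its neighbour in RefSeq order and partner in IFIT complexes, had signals of 42.0, 29.6, 30.9 and 17.7 in control rats and 30.0, 74.8, 71.4 and 40.1 in epileptogenic rats. The groups of Ifit3 overlapped, and the difference of 0.81 ± 0.40 did not pass (adjusted p = 0.328). Ifit1, which lies in the same cluster, was too dim to test, with signals of 5.04 to 54.5 in control rats and 3.17 to 30.7 in epileptogenic rats.

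Ifitm3, which restricts virus entry at endosomes, had signals of 73.0, 46.1, 33.2 and 35.7 in control rats and 112, 120, 179 and 66.2 in epileptogenic rats. The groups overlapped through 1 array of each, and the difference of 1.33 ± 0.34 did not pass (adjusted p = 0.0665). With the letters as a replicate block Ifitm3 passed (adjusted p = 0.0110), as it did after median centring (adjusted p = 0.0494) and without epileptogenic paired B (adjusted p = 0.0278). Bst2, the tetherin that holds budding virus at the membrane, had signals of 47.7, 39.9, 38.0 and 16.3 in control rats and 48.5, 57.3, 48.1 and 46.8 in epileptogenic rats. Its groups overlapped by a narrow margin, the lowest signal was that of control paired B, and the difference of 0.60 ± 0.34 did not pass (adjusted p = 0.383).

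Of the 5 interferon-induced GTPases with a probe set, all were tested, 4 rose, and every epileptogenic array was above every control array for all 5. Mx1, a dynamin-like protein that traps viral nucleocapsids, had signals of 20.0, 11.2, 19.0 and 16.8 in control rats and 122, 81.7, 99.9 and 86.6 in epileptogenic rats. Mx2, its close relative, had signals of 34.5, 34.3, 33.6 and 61.6 in control rats and 237, 914, 679 and 264 in epileptogenic rats. Mx1 was higher by 2.56 ± 0.32 (adjusted p = 0.00419), with all control signals under the filter level, and by 1.79 with 16 added before the logarithm. Mx2 was higher by 3.49 ± 0.46 (adjusted p = 0.00494), and its epileptogenic arrays spread more than its control arrays. A second probe set of Mx2 was higher by 1.51 (adjusted p = 0.0344). Mx1 and Mx2 lie with 1 coding gene between them in RefSeq order.

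Gbp2, a guanylate-binding protein that type II interferon induces, had signals of 31.9, 29.4, 20.3 and 66.2 in control rats and 162, 153, 131 and 162 in epileptogenic rats. Ifgga2l1, a rat gene of the immunity-related GTPases, had signals of 81.1, 72.2, 49.9 and 67.8 in control rats and 598, 847, 642 and 709 in epileptogenic rats. Gbp2 was higher by 2.17 ± 0.35 (adjusted p = 0.0134) and Ifgga2l1 by 3.38 ± 0.21 (adjusted p = 0.00083). Without epileptogenic unpaired B, Gbp2 did not pass (adjusted p = 0.0569). Igtp, another immunity-related GTPase, had signals of 24.9, 14.4, 24.9 and 7.30 in control rats and 42.0, 36.9, 41.4 and 38.8 in epileptogenic rats. Its groups did not overlap, but the difference of 1.31 ± 0.47 did not pass (adjusted p = 0.175), and a second, dimmer probe set differed by -0.04 with no test.

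In the group around ISG15, ubiquitin ligases and ADP-ribosylation, 5 of 6 tested members rose. Isg15, the ubiquitin-like modifier, had signals of 14.1, 32.8, 35.8 and 44.7 in control rats and 162, 194, 158 and 62.8 in epileptogenic rats. Usp18, the protease that removes ISG15 and dampens the type I receptor, had signals of 64.6, 35.5, 53.3 and 44.4 in control rats and 193, 207, 251 and 183 in epileptogenic rats. Both lay above their control arrays throughout, with epileptogenic paired B the lowest epileptogenic array of each. Isg15 was higher by 2.18 ± 0.38 (adjusted p = 0.0167) and Usp18 by 2.10 ± 0.26 (adjusted p = 0.00413). Herc6, the rodent ligase that attaches ISG15, had signals of 12.4, 16.3, 35.9 and 46.7 in control rats and 50.0, 23.7, 35.5 and 29.7 in epileptogenic rats. Its groups overlapped and the difference of 0.47 ± 0.38 did not pass (adjusted p = 0.562). Isg15 did not pass without control paired A (adjusted p = 0.0615), epileptogenic unpaired B (0.0774) or epileptogenic paired A (0.0555).

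Dtx3l, Parp9 and Parp14 are direct neighbours in RefSeq order, and Dtx3l and Parp9 encode a ubiquitin ligase and the ADP-ribosyltransferase bound to it. Dtx3l had signals of 582, 378, 287 and 482 in control rats and 1531, 1431, 1379 and 1376 in epileptogenic rats. Parp9 had signals of 36.8, 38.9, 30.4 and 43.8 in control rats and 141, 215, 97.6 and 152 in epileptogenic rats. Parp14, a further ADP-ribosyltransferase, had signals of 68.0, 41.8, 33.2 and 40.4 in control rats and 127, 128, 67.6 and 94.0 in epileptogenic rats. The groups of Dtx3l and Parp9 lay apart, and those of Parp14 met where epileptogenic paired A was just under control unpaired A. Dtx3l was higher by 1.77 ± 0.22 (adjusted p = 0.00419), Parp9 by 1.97 ± 0.27 (adjusted p = 0.00583) and Parp14 by 1.19 ± 0.26 (adjusted p = 0.0406). The second probe set of Parp14 was too dim to test and differed by 0.38. Parp14 passed only without control unpaired A when single arrays were left out (highest adjusted p = 0.131, without epileptogenic unpaired B), and it did not pass after median centring.

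Of the 3 remaining members, Ifi44 and Slfn4 were tested and both rose. Ifi44, a cytoplasmic protein induced by type I interferon, had signals of 48.1, 42.9, 69.7 and 38.9 in control rats and 89.0, 171, 130 and 179 in epileptogenic rats. Slfn4, a Schlafen gene of myeloid cells, had signals of 26.0, 15.6, 25.1 and 99.4 in control rats and 296, 1128, 301 and 373 in epileptogenic rats. For both genes the groups did not overlap, and epileptogenic unpaired B stood high in Slfn4. Ifi44 was higher by 1.49 ± 0.30 (adjusted p = 0.0297) and Slfn4 by 3.80 ± 0.51 (adjusted p = 0.00541). A second probe set of Slfn4 was too dim to test and had the opposite sign, -0.79, and with the mean of both probe sets Slfn4 was higher by 1.51 and did not pass (adjusted p = 0.0554). Ifi44 passed in 2 of the 8 fits that left out an array, without control paired A and without epileptogenic unpaired A (highest adjusted p = 0.114, without epileptogenic unpaired B).

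**Figure D3:**
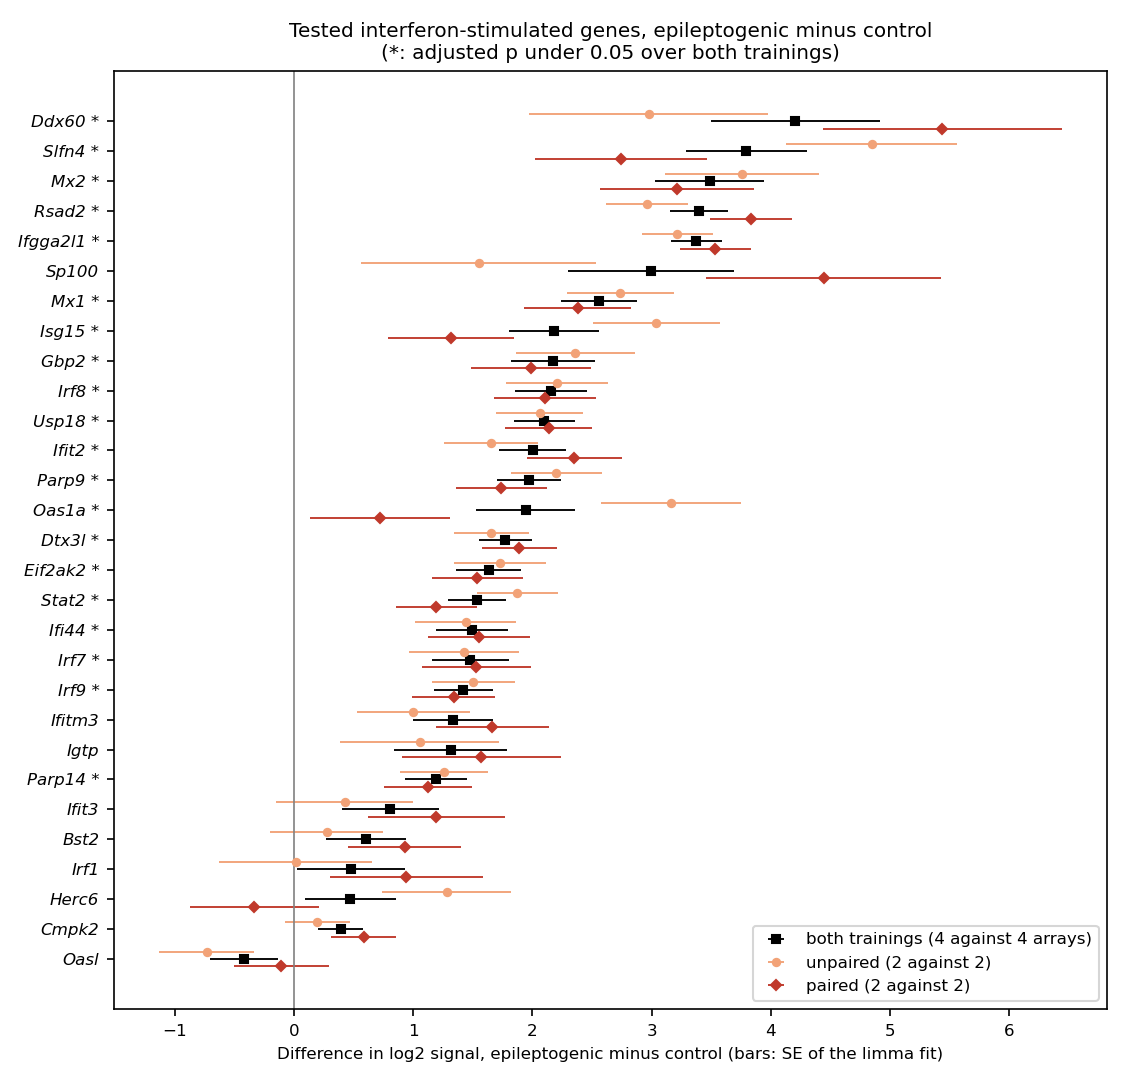
Difference in log2 signal, epileptogenic minus control, of the 29 tested members over both trainings (black squares, 4 against 4 arrays), in unpaired training (orange circles) and in paired training (red diamonds), each 2 against 2 arrays, with bars for the SE of the limma fit. Asterisks mark the 20 members with an adjusted p under 0.05 over both trainings. Oasl alone lies under 0 over both trainings, and the within-training values of Oas1a, Slfn4, Ddx60 and Sp100 lie far from each other.

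The difference was next read within each training. In rats with unpaired training 4 members rose, against 0.29% of the tested probe sets, and with the replicate block 18 rose, against 3.4%. They were Slfn4 at 4.85 ± 0.72 (adjusted p = 0.0443), Ifgga2l1 at 3.22 ± 0.30 (adjusted p = 0.0150), Rsad2 at 2.96 ± 0.35 (adjusted p = 0.0286) and Mx1 at 2.74 ± 0.45 (adjusted p = 0.0499). In rats with paired training 5 members rose, against 0.521%, and with the replicate block 18, against 3.45%. They were Rsad2 at 3.84 ± 0.35 (adjusted p = 0.0104), Ifgga2l1 at 3.54 ± 0.30 (adjusted p = 0.0104), Ifit2 at 2.35 ± 0.40 (adjusted p = 0.0421), Usp18 at 2.14 ± 0.36 (adjusted p = 0.0427) and Dtx3l at 1.89 ± 0.32 (adjusted p = 0.0421). At an unadjusted p under 0.05, 21 members were higher in unpaired and 22 in paired training, and none was lower in either. In all, 2328 tested probe sets (12.5%) passed at that level in unpaired and 1847 (9.92%) in paired training, in either direction.

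Over the 34 members the median difference was 1.60 in unpaired and 1.56 in paired training, 16 members had the larger difference in unpaired and 18 in paired training, and the 2 sets of differences, which share no arrays, had a Pearson r of 0.52 across genes. The count within unpaired training fell to 0 without any 1 of the 4 unpaired arrays and to 2 without epileptogenic paired A or B. The count within paired training fell to 0 without control paired A, epileptogenic paired A or epileptogenic paired B, and to 3 without epileptogenic unpaired A or B. After median centring 0 members passed in either training.

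Fear training itself was compared next, with paired minus unpaired over control and epileptogenic rats together. In this comparison 0 of 29 members and 0 of 18625 probe sets (0%) passed in limma, and with the replicate block the count was 0 as well. At an unadjusted p under 0.05, 0 members were higher and 1 was lower, and 214 probe sets passed in all. The 3 members with the smallest p were Parp14 at -0.61 ± 0.26, Sp100 at -1.37 ± 0.70 and Cmpk2 at 0.37 ± 0.19, with unadjusted p of 0.0427, 0.0808 and 0.0836 in limma.

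Whether the training difference was unlike in control and epileptogenic rats was tested as an interaction, and again 0 of 29 members and 0% of the probe sets passed in limma, while 2 members and 274 probe sets had an unadjusted p under 0.05. Oas1a had the smallest p, with an interaction of -2.44 ± 0.83 (unadjusted p = 0.0160 in limma). In control rats Oas1a was higher after paired training, 23.7 and 17.7 against 4.66 and 7.62, and in epileptogenic rats it was lower, 39.7 and 28.7 against 55.1 and 51.8. Isg15 followed at -1.72 ± 0.75 (unadjusted p = 0.0463 in limma). Its control arrays were 35.8 and 44.7 after paired against 14.1 and 32.8 after unpaired training, and its epileptogenic arrays 158 and 62.8 against 162 and 194. Herc6 came next at -1.61 ± 0.76 (unadjusted p = 0.0629 in limma), with epileptogenic arrays above control arrays in unpaired and under them in paired training. None of these values passed after adjustment, and the adjusted p rounded to 1 for each.

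**Figure D4:**
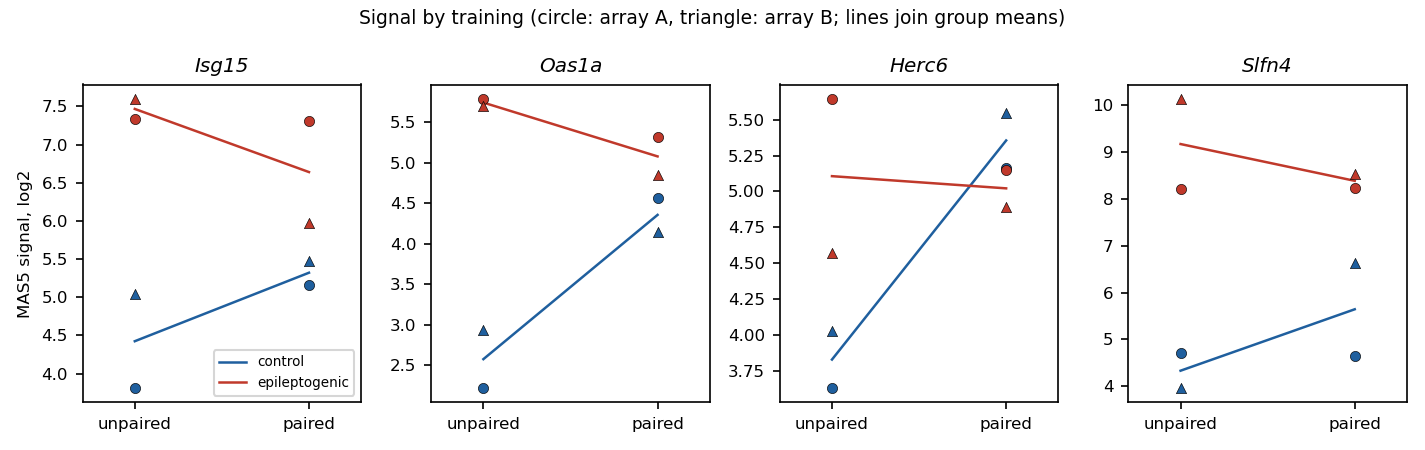
MAS5 signal on a log2 scale of Isg15, Oas1a, Herc6 and Slfn4 in unpaired and paired training, with control rats in blue and epileptogenic rats in red, circles for array A, triangles for array B and lines between group means of 2 arrays. The lines of Oas1a and Isg15 run in opposite directions in control and epileptogenic rats, and the lines of Herc6 cross. No interaction of these 4 genes passed after adjustment.

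The steps of the pathway above these genes were read from lists of further genes. Interferons themselves were dim: 3 of 11 listed ligands had a probe set, none passed the filter, and their summed signal was 2.02 to 23.5 on control and 2.22 to 8.56 on epileptogenic arrays. Ifnb1, the type I interferon of most cell types, had signals of 0.788 to 10.0 in control and 0.879 to 1.81 in epileptogenic rats. Ifng, the type II interferon, had signals of 0.322 to 8.98 in control and 0.332 to 3.59 in epileptogenic rats. At these levels a difference was not detectable.

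Of the 8 tested receptors and Janus kinases 2 rose and none fell. Ifngr1, the binding chain of the type II receptor, had signals of 313, 324, 243 and 264 in control rats and 692, 1445, 707 and 586 in epileptogenic rats, a difference of 1.50 ± 0.24 (adjusted p = 0.0132). Il10rb, a chain shared by the receptors of type III interferons and interleukin-10, was higher by 1.51 ± 0.27 (adjusted p = 0.0180). Ifnar1, a chain of the type I receptor, had signals of 48.9, 28.3, 36.8 and 14.4 in control rats and 64.8, 14.0, 46.8 and 32.4 in epileptogenic rats, with overlapping groups and a difference of 0.23 ± 0.55 (adjusted p = 0.870). Of 4 tested STAT and IRF genes outside the set 1 rose, Stat3 at 1.02 ± 0.21 (adjusted p = 0.0297). Of 7 tested sensors and adaptors outside the set 2 rose, the endosomal RNA receptor Tlr7 at 2.40 ± 0.33 (adjusted p = 0.00650) and the ligase Trim25, which activates RIG-I, at 1.53 ± 0.26 (adjusted p = 0.0164). Of 8 tested negative regulators 2 rose, the phosphatase Ptpn6 at 2.27 ± 0.38 (adjusted p = 0.0157) and Pias1, an inhibitor of STAT signalling, at 0.93 ± 0.21 (adjusted p = 0.0440).

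A list of 72 further interferon-stimulated genes held 51 with a probe set and 41 tested, of which 18 rose and none fell, while 2.81% of all tested probe sets rose. This list, too, was chosen with earlier results of these data known. Over the 51 genes, tested or not, the median difference was 1.13. Every epileptogenic array was above every control array for 27 of the 51. The share was 7.29% over the tested probe sets alone, and over all probe sets, tested or not, it was not counted. The 4 with the smallest p were B2m, the light chain of class I antigen presentation, at 1.58 ± 0.16 (adjusted p = 0.00237), Epsti1 at 2.63 ± 0.29 (adjusted p = 0.00276), the restriction factor Trim5 at 1.76 ± 0.21 (adjusted p = 0.00369) and Ifi27 at 1.43 ± 0.17 (adjusted p = 0.00400). The signal of B2m was 1050, 864, 776 and 886 in control rats and 2786, 2507, 2855 and 2475 in epileptogenic rats, with no overlap. Without epileptogenic unpaired B the count was 11.

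**Figure D5:**
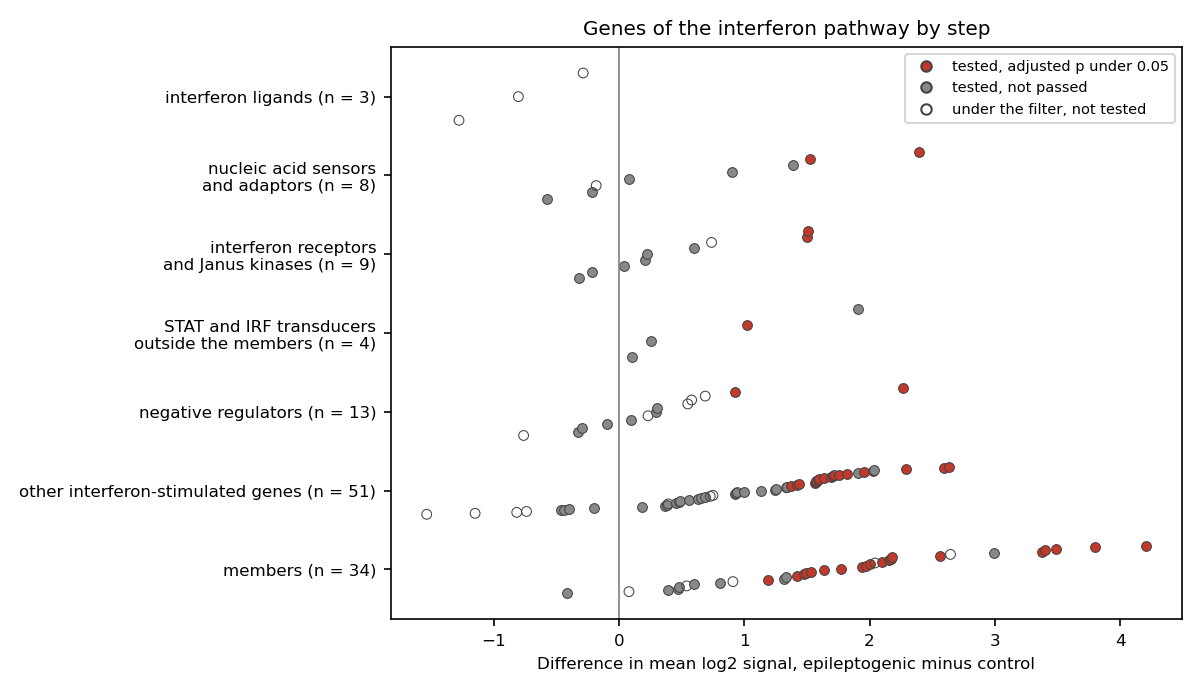
Difference in mean log2 signal, epileptogenic minus control, of each gene of the 6 pathway lists and of the 34 members, 1 point per gene, stacked by size within a list. Filled red points passed with an adjusted p under 0.05, grey points were tested and did not pass, and open points were under the filter and not tested. The 3 ligands lie under 0 and were not tested, and 20 of the members and 18 of the further interferon-stimulated genes are red.

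Markers of cell types moved with the same contrast, and their part in the differences of the interferon-stimulated genes was not tested. Of 16 microglial markers with a probe set, 15 were tested and 13 rose, and their summed signal was 1656 to 2445 on control and 7966 to 10682 on epileptogenic arrays. Aif1, a calcium-binding protein of microglia, had signals of 25.7, 46.9, 20.3 and 72.4 in control rats and 212, 300, 186 and 284 in epileptogenic rats, a difference of 2.72 ± 0.41 (adjusted p = 0.00893). Csf1r, the survival receptor of microglia, was higher by 1.68 ± 0.29 (adjusted p = 0.0168), and Cx3cr1, the fractalkine receptor, differed by -0.40 ± 0.58 (adjusted p = 0.763). Of 11 markers of monocytes and perivascular macrophages 5 were tested and 2 rose, with summed signals of 527 to 1466 in control and 1586 to 2703 in epileptogenic rats. Ccr2, which marks blood-derived monocytes, was under the filter level on all arrays, at 4.17 to 9.68, and was not tested.

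Most markers of neutrophils and lymphocytes were under the filter level. None of 6 neutrophil markers passed the filter, 5 were under its level in every group, and the sums were 28.4 to 56.4 in control and 23.2 to 45.8 in epileptogenic rats. Of 17 lymphocyte markers 2 were tested and none rose, 12 were under the level in every group, and the sums were 216 to 384 and 165 to 244. No marker was at a signal of 0 on any array. Of 9 astrocyte markers, all tested, 3 rose, and none of 2 tested plasmacytoid dendritic cell markers did. None of 9 tested endothelial markers rose, 2 did with the replicate block, and their sums did not overlap, at 1224 to 1564 in control and 1733 to 2256 in epileptogenic rats. Of 9 tested general neuronal markers none fell, 5 did with the replicate block, and the sums of all 10 with a probe set did not overlap either, at 16408 to 21468 in control and 11538 to 15520 in epileptogenic rats. Of 8 tested oligodendrocyte markers none rose and 3 did with the replicate block. The tissue label was checked on 9 markers of basolateral excitatory neurons, which were present in every group with sums of 4325 to 6015 in control and 2421 to 3999 in epileptogenic rats, and 3 of 8 tested ones fell. Markers of the central amygdala and striatum summed to 2659 to 4487 in control and 1666 to 4711 in epileptogenic rats, and those of choroid plexus to 668 to 7013 and 951 to 7582.

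The arrays themselves differed in level. Median signals ranged from 29.0 to 43.2, with array A above array B in every group, and no further normalization was made in the main fit. Array to array Pearson correlations of log2 signal across all probe sets but the control ones ranged from 0.850 to 0.925, and no pair of arrays was identical. The mean log2 signal of the 34 members was 1.63 to 1.98 above the mean of the control arrays on the 4 epileptogenic arrays and -0.12 to 0.25 from it on the control arrays.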

How the data were processed

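Affymetrix rat genome arrays measured RNA of the microdissected nuclei in 8 pools. The authors deposited 1 intensity per probe set and array, made with MAS5 per the submitters' processing notes; the MAS5 version, its scaling target and the genome build behind the probe sets are not given in the sources used here, and detection calls were not used here. All deposited values were above 0. From these values, log2 signals were taken with no further normalization, 57 control probe sets were left out of 31099, and the 18625 whose mean over the arrays exceeded the 40th percentile were tested. Probe sets were named through the platform annotation: 20826 had 1 symbol, 436 several and 9780 none, and 10364 named genes were tested.

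limma 3.58.1 in R 4.3.3 fitted 4 group means, with eBayes trend and without a block, and p-values were adjusted over all tested probe sets (Benjamini-Hochberg, two-sided, 0.05). The contrasts were epileptogenic against control over both trainings and within each, paired against unpaired, and their interaction. The fit was tested on simulated data. The letters of the labels were checked as pairs: deviations from the group means correlated between same-lettered arrays of different groups in all 6 pairs of groups (0.321 to 0.407), so the fit with the letter as a replicate block was run too. What the letters stand for is not given in the sources used here. The precision rests on the number of arrays.

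Every member was named. Of each pathway list at most 4 genes that rose, by smallest p, were named, with Ifnb1, Ifng, Ifnar1 and Ifngr1 in any case (a further gene of this rule is not reported here); for training and the interaction the 3 members with the smallest p; and of each marker list at most 3 genes in list order. The members and lists were chosen with earlier results of these data known. Promoter windows of RefSeq (GRCr8, 33469 windows of 27457 genes) were searched on both strands for GAAA, any 2 bases and GAAA and for the gamma-activated site. The settings varied were the scaling (quantile or median centring), an offset of 16, the filter (none or 60th percentile), the trend, array weights, the block, 1 letter at a time, averaged probe sets of a gene, and each array left out. The count of the further interferon-stimulated genes and the median of the members under these settings were added after seeing the data.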

Additional observations from a re-analysis of the deposited data

Results flagged for a closer look

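In 5 of 68 groups of 4 arrays of 1 member, the highest or lowest array stood apart from the other 3 beyond Dixon's 95% critical value; chance gives about 5% of groups. Among epileptogenic arrays, Irf8 was lowest on paired A, with a log2 signal of 7.06 (signal 133, others 199 to 215), Zbp1 was lowest on paired B, at 3.47 (11.1, others 25.0 to 28.6), and Rsad2 was highest on paired B, at 9.77 (874, others 612 to 641). Among control arrays, Stat2 was lowest on unpaired A, at 5.51 (45.5, others 81.7 to 84.2), and Mx2 was highest on paired B, at 5.95 (61.6, others 33.6 to 34.5).

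For 3 members all arrays of 1 stimulation or training moved one way and all of the other the opposite way. With 2 arrays a group such an order can arise by chance, and its share over all probe sets was not counted. The 3 cases are therefore not told apart from chance. Paired minus unpaired training differed in direction between control and epileptogenic rats for Oas1a, with an interaction of -2.44, and for Isg15, at -1.72. The nearest paired and unpaired arrays of Isg15 were 35.8 against 32.8 in control and 158 against 162 in epileptogenic rats. Epileptogenic minus control differed in direction between unpaired and paired training for Herc6, at -1.61, with nearest signals in paired training of 35.5 against 35.9. The interaction was fitted for each, and none passed in limma after adjustment.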

How the results depend on the processing

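Over both trainings 20 members were higher. The count was 10 to 17 with single arrays left out (10 without epileptogenic unpaired B) and 22 with the replicate block. Under the other settings that kept all 8 arrays it was 17 to 21. With the A arrays alone the count was lower than 20, and with the B arrays alone it was higher. Such fits have 1 array per group, so their p-values rest on little measured spread and their counts are not given. The higher count with the B arrays is therefore not read as stronger evidence. Within unpaired training 4 members passed, with the replicate block 18, with an offset of 16 7, with the 60th percentile filter 8, and after median centring or with no intensity trend 0; single arrays left out gave 0 to 4. Within paired training 5 passed, with the replicate block 18, and after median centring or with no intensity trend 0; single arrays left out gave 0 to 4. The training and interaction counts were 0 in every setting run. The replicate block also turned Sp100 and Ifitm3 to passing and changed no other call of a member over both trainings. Over all 18625 tested probe sets the block took the higher calls from 523 to 1411 and the lower calls from 154 to 1611. The further interferon-stimulated genes went from 18 to 11 without epileptogenic unpaired B, and with other single arrays left out to 13 to 17. The median difference of the members was 1.70, with an offset of 16 1.25, for the A arrays alone 1.53 and for the B arrays alone 1.81. Of 541 single member values 470 kept direction and side of the threshold, 57 lost it, 13 gained it and 1 changed sign, Herc6 within letter B at -0.054. Of the 20 members that rose, 10 passed in all 8 fits with an array left out, 12 passed under every other setting in which they were tested (Mx1 was not tested with the 60th percentile filter) and 0 changed sign. Where a count moved, the cause was not tested. Control means under the filter level make the size of the differences of Ddx60, Oas1a, Mx1, Sp100 and Igtp uncertain. Of the other members that rose, 3 had a control array at or under that level, which limits the size of their differences too. These were Slfn4 (15.6 on unpaired B), Isg15 (14.1 on unpaired A) and Gbp2 (20.3 on paired A). An offset shrinks log2 differences by arithmetic, most where signals are dim, so smaller values with it are not particular to these genes.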
